A study of Caenorhabditis elegans with 4 samples.

Results

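The piRNA domains of *Caenorhabditis elegans* chromosome IV are 2 broad stretches rich in genes for 21U-RNAs, the piRNAs of this worm. Here they are the stretch from 4.5 to 7.0 Mb, called the left domain, and the stretch from 13.5 to 17.2 Mb, called the right domain. Their binding of RNA polymerase II in early embryos was read from a deposited list of 8121 enriched regions. A region was counted as a member when it lay on chromosome IV and its midpoint fell inside a domain, which gave 317 members (3.90% of the list), 137 in the left domain and 180 in the right domain. The limits are given by position alone and no measured value enters the rule. The members and measures were nevertheless chosen with earlier results of these data known.

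The list came from chromatin immunoprecipitation and sequencing (ChIP-seq) of whole early embryos of strain N2, the wild type laboratory strain, from hermaphrodites grown at 20 degrees Celsius. For the 2 ChIP libraries the labels name 8WG16, a mouse monoclonal that binds the repeated heptapeptide of AMA-1, the largest polymerase II subunit. The 2 input libraries hold DNA that was not precipitated. The protocol text in the labels speaks of an anti-GFP serum, and the antibody named for the ChIP libraries was followed here. All 4 libraries entered 1 combined list, so no value below has a replicate error, and no difference could be tested. All comparisons are descriptions, and the 95% intervals given cover counting error only, in reads or in regions that are not independent of each other.

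Polymerase II transcribes protein-coding genes and, in *C. elegans*, also the piRNA genes, which are very short transcription units that each carry their own upstream promoter motif. The mature 21U-RNAs are bound by the Piwi protein PRG-1 in the germline, where they direct the silencing of transposons and other foreign sequences. The domains also hold protein-coding genes, in whose introns and intervals the piRNA genes lie. In the early embryo the somatic cells begin to transcribe their genome while the germline founder cells are kept largely silent. In the RefSeq gene table of assembly WBcel235, 14714 of 15363 piRNA genes (95.8%) are on chromosome IV, and each other chromosome has 78 to 202. The positions in that table belong to another build than the WS180 coordinates of the list, so the piRNA content of the domains was not measured here, no region was assigned to a gene, and no sequence is shown.

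Each region of the list has a first and last base and a q-value, the p-value of ChIP against input after correction for multiple tests. Of 18572 tested regions, 8168 (44.0%) had a q-value under 0.01, and 8121 of these are analysed here. The numbers 18572 and 8168 were inferred from the q-values of the list. How many of the tested regions lay in the domains is not known, so that the share of tested regions that passed there cannot be given. ChIP and input read numbers were recovered from the q-values for all 317 members. They held 79777 ChIP reads and 33876 input reads, and a single member had 19 to 3649 reads in all, with a median of 178. The input number is the one used in the authors' test and may have been scaled. A member's fold is its ChIP reads divided by its input reads. Since whole embryos were used, fewer cells with bound polymerase and less polymerase per cell cannot be told apart.

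Polymerase II regions were sparser in both domains than in the rest of chromosome IV. The left domain had 54.8 regions per Mb and the right domain 48.6, against 89.3 in the rest of the chromosome. The ratio of the domains to the rest was 0.572 (95% interval 0.503 to 0.650). The domains made up 35.7% of the chromosome, measured from its first to its last region, and held 24.1% of its 1313 regions (interval 21.9 to 26.6%). The part of the chromosome before the left domain was densest, at 112 per Mb, and the part between the domains had 76.0. Against the part between the domains the ratio was 0.721 (0.592 to 0.873) for the left domain and 0.640 (0.537 to 0.761) for the right domain. The short end beyond the right domain held 12 regions, or 46.0 per Mb. The left and right domains themselves had a ratio of 1.13 (0.895 to 1.41), an interval that includes 1. With neighbours within 1000 bp merged, this ratio was 1.48 (1.09 to 2.00), an interval that excludes 1.

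The same order was seen in bins of 500 kb. The 5 bins of the left domain held 32, 28, 35, 14 and 28 regions from left to right. In the right domain the 7 complete bins held 29, 30, 30, 19, 11, 9 and 30. The mean was 27.4 ± 8.05 regions in the left domain (SD over 5 bins) and 22.6 ± 9.47 in the right domain (SD over 7 bins). Before the left domain the 8 complete bins held 45 to 68 regions, and none was as low as the highest domain bin of 35. Between the domains the 13 bins held 17 to 74, and 7 of them held 35 or fewer, so the domains overlapped with that part of the chromosome. The steepest step lay at the left limit of the right domain, where the bin before the limit held 74 regions and the bin after it 29.

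**Figure D1:**
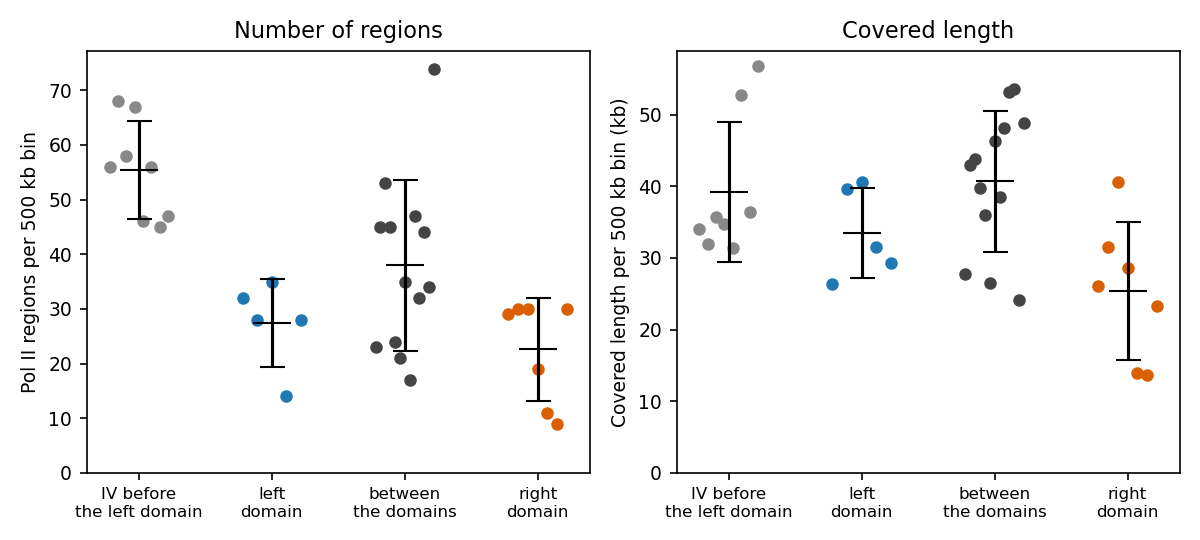
Number of Pol II regions (left panel) and covered length in kb (right panel) in each complete 500 kb bin of chromosome IV, by part of the chromosome, with the mean and SD over bins in black. Domain bins hold 9 to 35 regions, and the bins before the left domain hold 45 to 68.

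Covered length differed less than the number of regions. Members covered 167 kb of the left domain, or 67.0 kb per Mb, and 201 kb of the right domain, or 54.2 kb per Mb. The rest of the chromosome had 80.2 kb per Mb, so that the ratio of the domains to the rest was 0.740 in covered length. Per bin the covered length ran from 26.4 to 40.6 kb in the left domain, from 13.6 to 40.7 kb in the right domain and from 24.1 to 56.8 kb in the complete bins of the rest. The left domain thus lay within the range of the rest in each of its bins. The lowest values were those of the right domain from 15.5 to 16.0 Mb (13.9 kb) and from 16.0 to 16.5 Mb (13.6 kb).

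Regions were spread unevenly over the right domain. Of its 37 windows of 100 kb, 8 held no region (21.6%, exact interval 9.83 to 38.2%), against 1 of 25 in the left domain (4.0%, 0.101 to 20.4%) and 3 of 110 in the rest of the chromosome (2.73%, 0.566 to 7.76%). The intervals of the domains overlap. The empty window of the left domain ran from 4900001 to 5000000. Those of the right domain began at 13600001, 14500001, 15200001, 15300001, 15700001, 16200001, 16400001 and 16700001. The densest window of the right domain, from 15400001 to 15500000 with 14 regions, came directly after an empty pair. In the left domain the densest window ran from 4700001 to 4800000, with 17 regions. Windows with 3 regions or fewer numbered 18 of 37 in the right domain, 10 of 25 in the left domain and 18 of 110 in the rest. In windows of 50 kb, 36.3% of the windows of both domains were empty.

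**Figure D2:**
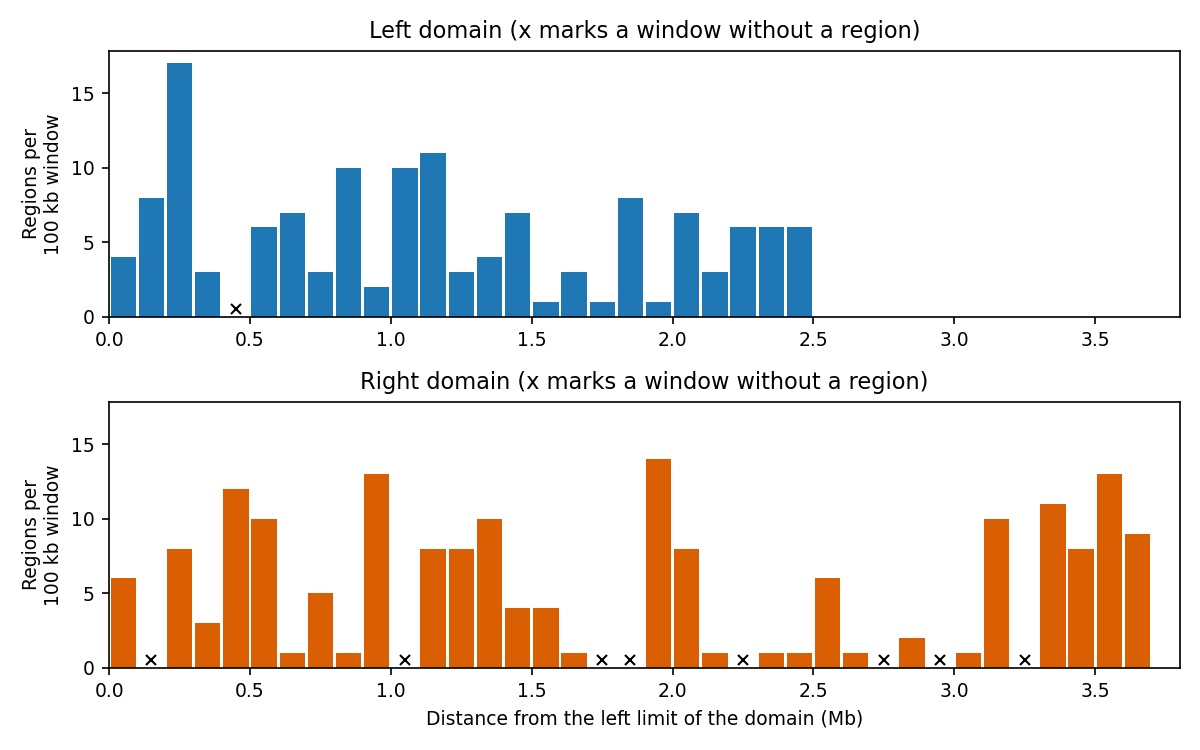
Number of Pol II regions in each 100 kb window, against the distance from the left limit of the domain in Mb, for the left domain (upper panel, 25 windows) and the right domain (lower panel, 37 windows). The right domain has 8 empty windows and the left domain 1.

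Long stretches without a listed region took up most of the right domain. Stretches were measured between neighbouring members of the same domain. Those of 50 kb or more numbered 26 in the right domain and together spanned 3034 kb, or 82.0% of its length. In the left domain 15 such stretches spanned 1275 kb, or 51.0% of the length. The share was 35.9% before the left domain and 35.1% between the domains. At a length of 100 kb or more the shares were 57.4% in the right domain and 17.2% in the left domain. They were 11.6% before the left domain and 5.68% between the domains. Chromosome V as a whole had 60.0% of its span in stretches of 50 kb or more and the X chromosome 73.3%, so that high shares were also found outside chromosome IV. At 100 kb or more chromosome V had 34.6% and the X chromosome 45.3%.

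**Figure D3:**
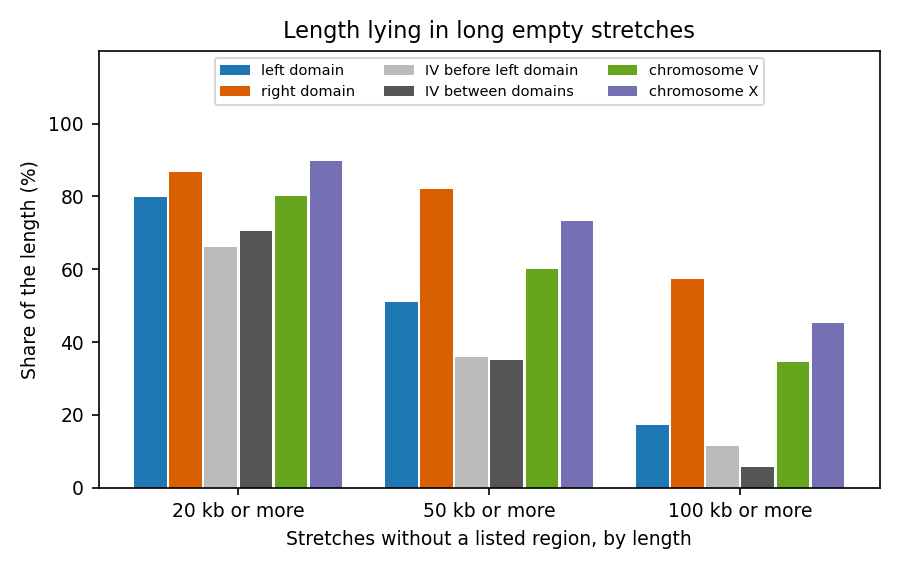
Share of the length (%) that lies in stretches without a listed region of at least 20, 50 or 100 kb, for the 2 domains, the parts of chromosome IV before and between them, and chromosomes V and X. The right domain has 82.0% in stretches of 50 kb or more and the left domain 51.0%.

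The longest stretch of the right domain ran from 15111579 to 15452446, or 341 kb. It ended at a region of 724 bp with a fold of 2.61 (95% interval 1.71 to 4.09), the first in the densest window of the domain, and it followed a region of 221 bp with a fold of 2.25 (1.22 to 4.34). The next longest ran from 16171016 to 16380122 (209 kb) and from 15648543 to 15852967 (204 kb). The first of these was flanked by regions of 3684 bp (fold 2.14) and 2520 bp (fold 4.47, interval 3.75 to 5.35), the other by regions of 2314 and 784 bp with folds of 1.62 and 1.83. All 3 were longer than the longest stretch within the rest of chromosome IV, from 2023887 to 2179002, at 155 kb. In the left domain the longest ran from 4880956 to 5063143 (182 kb), from 6155295 to 6294089 (139 kb) and from 6003422 to 6111287 (108 kb). The stretch of 139 kb ended at the region with the highest fold of the left domain.

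Between these long stretches the members of the right domain stood in compact groups. If stretches of 50 kb or more are taken as borders, the right domain had 27 groups with a median of 5 regions and a median span of 15.8 kb, and 9 of them were single regions. The groups together spanned 663 kb and held 271 regions per Mb of that span. In the left domain there were 16 groups, 2 of them single, with a median of 7.5 regions and 76.6 kb, and 114 regions per Mb of span. Between the domains the groups held a median of 14 regions over 79.4 kb and before the left domain 19.5 over 107 kb, and none was a single region. Per Mb of span these groups held 118 regions between the domains, near the left domain, and 176 before the left domain. The largest group of the right domain lay from 15452447 to 15560078, with 22 regions over 108 kb, and that of the left domain from 4650429 to 4807389, with 27 regions over 157 kb.

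The distance between neighbours was shorter at the median in the right domain than in the left one. The median stretch between neighbours was 1019 bp in the right domain (interval 778 to 1610) and 2485 bp in the left domain (1822 to 4798), against 1745 bp in the rest of the chromosome (1452 to 2006). Within the rest it was 1166 bp before the left domain (937 to 1486) and 2381 bp between the domains (1951 to 3189). The differences of the right domain to the former (−147 bp, −548 to 487) and of the left domain to the latter (103.5 bp, −941 to 2457) have intervals that include 0. Both domains together had 1589 bp, and this value rose to 5816 bp in the stronger 50% of the list and to 6853 bp with neighbours within 1000 bp merged. Runs of regions with at most 1000 bp between neighbours held 128 of the 180 right members (71.1%) and 71 of the 137 left members (51.8%), beside 69.6% before the left domain, 56.9% between the domains, 68.7% on chromosome V and 63.7% of the whole list. The longest run of the right domain had 8 regions within 9.49 kb, from 16645372 to 16654864, with folds of 2.14 to 4.6. In the left domain it had 6 regions within 14.2 kb, from 5172106 to 5186273, with folds of 1.70 to 3.74.

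The median width of the members was above that of the other regions of the chromosome as a whole, and the left domain had the larger median. The median width was 667 bp in both domains (interval 562 to 750) and 518 bp in the rest (480 to 565). The difference, domains minus rest, was 149 bp (34.0 to 240), and it was 290 bp (35.6 to 561) in the stronger 50% of the list. Against the part between the domains alone it was 54 bp (−83 to 157), after merging of neighbours 119 bp (−275 to 658) and without the densest 500 kb bin 118 bp (−0.70 to 232), and these 3 intervals include 0. The left domain had a median of 750 bp (quartiles 401 and 1514) and the right domain 553 bp (250 and 1272). Before the left domain the median was 428 bp, and between the domains it was 613 bp, above that of the right domain. The difference of left minus right, 197 bp (46.7 to 407), turned to −113.5 bp in the stronger 50% and to −396 bp after merging of neighbours, with intervals that include 0 in both cases.

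Broad regions of 3 kb or more numbered 12 in the left domain (8.76%, exact interval 4.61 to 14.8%) and 16 in the right domain (8.89%, 5.17 to 14.03%). Beside these the rest of the chromosome had 5.22% (3.92 to 6.79%), with 2.24% before the left domain and 8.10% between the domains. The whole list had 5.68%. The broad regions made up 35.1% of the covered length in the left domain and 41.5% in the right one. Their folds ran from 1.52 to 3.74. At the other end, 8 members (2.52%) were narrower than 20 bp, 2 in the left and 6 in the right domain. The share was 2.81% in the rest of the chromosome and 3.21% in the whole list. These 8 members held 19 to 35 reads each.

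The deposited q-values of the domains and of the rest lay close together. The median −log10 q was 4.83 in the domains (interval 4.31 to 5.88) and 4.68 in the rest (4.36 to 5.10), a difference of 0.14 (−0.52 to 1.25). The difference was 1.68 (−1.13 to 4.77) in the stronger 50% of the list and −0.034 (−0.68 to 1.49) with the limits moved 0.25 Mb inward. The left domain had 5.53 (4.34 to 6.85) and the right domain 4.50 (3.89 to 5.76), and the interval of their difference, −0.70 to 2.48, includes 0. In the stronger 50% this difference, left minus right, was −0.73. Members were spread over all strengths, with 36 of 317 among the strongest 10% of the list (11.4%, exact interval 8.08 to 15.4%) and 39 among the weakest 10% (12.3%, 8.90 to 16.4%). Wider members had lower q-values, with Spearman's rho between width and −log10 q of 0.75 over the 137 left members and 0.82 over the 180 right members. A wide region holds more reads, and the regions share libraries and depth, so this is given as a description.

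The median fold of the listed members was lower in the left domain than in the right domain. The median fold was 2.06 in the left domain (interval 1.98 to 2.27) and 2.42 in the right domain (2.33 to 2.54), a difference of −0.35 (left minus right, −0.50 to −0.13). The left domain was thereby level with the adjoining part between the domains, at 2.07 (2.03 to 2.14). The right domain stood between that value and the 2.61 (2.53 to 2.69) of the part before the left domain. Both domains in one, at 2.31, and the rest of the chromosome, at 2.30, had nearly the same median. A fold of 3 or more was found in 28.3% of all listed regions with read numbers. In the right domain 52 of 180 members reached it (28.9%, exact interval 22.4 to 36.1%), a share near that of the whole list. In the left domain 18 of 137 did (13.1%, 7.98 to 20.0%), beside 12.98% between the domains and 36.7% before the left domain. Only regions under the q-value limit are listed, so a region with few reads enters only at a high fold. Members had a median of 143 reads in the right domain and 229 in the left. In each of 5 classes of width the right median fold was higher. It was 3.29 against 2.46 under 200 bp, 2.41 against 1.875 from 1 to 3 kb and 2.42 against 2.37 at 3 kb or more. How far the limit shapes the difference was not tested.

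**Figure D4:**
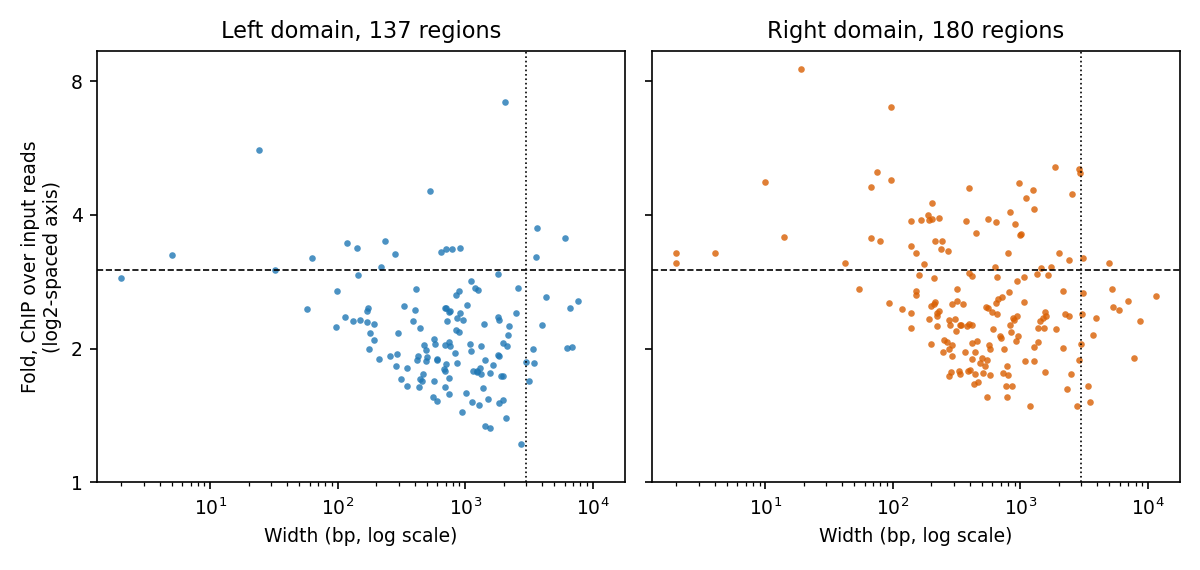
Fold of ChIP over input reads against width in bp, both on log axes, for each of the 137 left and 180 right members, with lines at a fold of 3 (dashed) and a width of 3 kb (dotted). Above the dashed line are 18 left and 52 right members, and the 28 members beyond the dotted line have folds of 1.52 to 3.74.

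Input and ChIP reads per length were summed over all members of a part, so that wide members weigh most. They belong to the pooled folds, 2.22 in the left domain and 2.49 in the right domain, and not to the median folds. Left members held 103 input reads per kb of region and right members 82.7, while the rest of the chromosome had 102 and the whole list 98.6. Within the rest the input was 88.5 per kb before the left domain and 110 between the domains. Chromosome V had 82.5, so the low input of the right domain was also found there. ChIP reads were 230 per kb in the left domain, 206 in the right domain, 236 in the rest and 239 in the whole list. On chromosome V they were 208 per kb. The right domain was thus lower than the left in both kinds of reads, and by a larger ratio in the input. In each of 5 classes of width the right domain had fewer input reads per kb than the left, for example 75.6 against 105 from 1 to 3 kb and 77.9 against 99.7 from 500 to 1000 bp. What the input differs in, and any effect of the authors' scaling, was not tested. Members with a fold of 4 or more numbered 3 in the left and 18 in the right domain, and 9 of the 18 were narrower than 500 bp. Of all listed regions with read numbers 11.5% reached this fold, so the right domain (10%) was near the whole list and the left domain (2.19%) below it, beside 5.07% between the domains. Within the right domain 5 of them lay from 15 to 15.5 Mb and 5 from 16.5 to 17 Mb. None lay from 14 to 15 Mb or from 15.5 to 16 Mb. Those from 15 to 15.5 Mb included regions of 19, 96, 97 and 202 bp with only 17 to 34 ChIP reads. The lower limits of fold of these narrow regions were 1.80 to 2.09. The remaining one had 824 bp and 118 ChIP reads. The highest single fold of the domains was 8.50, in a right member of 19 bp with 17 ChIP and 2 input reads, with an interval of 2.02 to 75.9.

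The strongest left member by q-value lay on chromosome IV from 5082919 to 5088919 (6001 bp, q = 1.79e-208). Its 2254 ChIP reads stood against 636 in the input (fold 3.54, 95% interval 3.24 to 3.88), and it had rank 75 of the 18572 tested regions. The second, from 6294090 to 6296155, was shorter (2.07 kb) and had 1194 ChIP and 166 input reads. Its fold of 7.19 (6.11 to 8.51) was the highest of the left domain, and its interval lay above those of the other 4 strongest left members. The remaining 3 of the 5 strongest were broad. They ran from 6329443 to 6337149 (7.71 kb, fold 2.56), from 5649718 to 5656299 (6.58 kb, fold 2.47) and from 5182656 to 5186273 (3.62 kb, fold 3.74, interval 3.28 to 4.28). The widest left member, that of 7.71 kb, was separated by 216 bp from the next widest, from 6322415 to 6329226 (6.81 kb, fold 2.01), and the pair spanned 14.7 kb.

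In the right domain the strongest member was also the widest, from 15036411 to 15047941 (11.5 kb, q = 2.14e-165). With 2643 ChIP reads and 1006 in the input, its fold was 2.63 (2.44 to 2.83). Another of the 3 widest lay 5789 bp before it, from 15022875 to 15030621 (7.75 kb, fold 1.90), and 1 further region stood between them. The second by q-value ran from 16397289 to 16400219 (2.93 kb) at a fold of 4.97 (1143 reads in the ChIP and 230 in the input, 4.31 to 5.75), and stood with 1 other region after the stretch of 209 kb. Next came 13887803 to 13894816 (7.01 kb, fold 2.56), 17087653 to 17090537 (2.89 kb, fold 5.08, interval 4.30 to 6.04) and 14787805 to 14793051 (5.25 kb, fold 2.72). The region from 17101983 to 17103865 (1.88 kb) had a fold of 5.12 (4.13 to 6.40), and 6 other regions lay in the 11.4 kb between it and that from 17087653. The other one of the 3 widest ran from 14073524 to 14082259 (8.74 kb, fold 2.31).

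None of the 10 regions strongest in their domains was among the 25 strongest of the list, since the best rank of a member was 75 and the list begins at rank 48. At the left limit of the left domain the last region outside had a midpoint at 4.47 Mb (1910 bp, fold 1.79) and the first inside at 4.51 Mb (1103 bp, fold 1.98). At its right limit the last inside had 389 bp and a fold of 2.31, and the first outside 306 bp and 2.20. The left limit of the right domain cut through a run, with a region of 138 bp (fold 4.10, interval 2.02 to 9.18) just outside and one of 210 bp (fold 2.52) just inside. At its right limit the last inside had 140 bp (fold 2.22) and the first outside 104 bp (fold 3.09).

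The sparseness of the domains was set beside the same relative positions on the other chromosomes. The left domain lies from 25.3 to 39.7% of the span of chromosome IV and the right domain from 77.2 to 98.5%. At the position of the left domain, the ratio of regions per Mb to the remainder of the same chromosome was 0.692 on IV and 0.880 to 1.11 on the others. At that of the right domain it was 0.586 on IV and 1.03 to 1.14 on the others. In absolute number, chromosome V was near to IV at the left position, with 57.9 against 54.8 per Mb, and had 68.9 against 48.6 at the right position. The X chromosome was lower at both, with 24.0 and 29.0 per Mb. The share of length in stretches of 50 kb or more at the right position was 82.0% on IV, 67.0% on V, 62.9% on X and 23.4 to 36.6% on I, II and III. At that position 12 of 44 windows of 100 kb were empty on V (27.3%), beside the 21.6% on IV. The longest stretch there was 384 kb on V and 386 kb on X, against 341 kb on IV and 93.7 to 202 kb on I, II and III. At the left position IV was below V and X in the share of length in stretches of 50 kb or more, with 51.0% against 58.6% on V and 65.6% on X. It was also below them in empty windows, with 4.0% against 10.3% and 12%. In both measures IV was above I, II and III, which had 15.3 to 20.2% of the length in such stretches and 0% of windows empty.

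**Figure D5:**
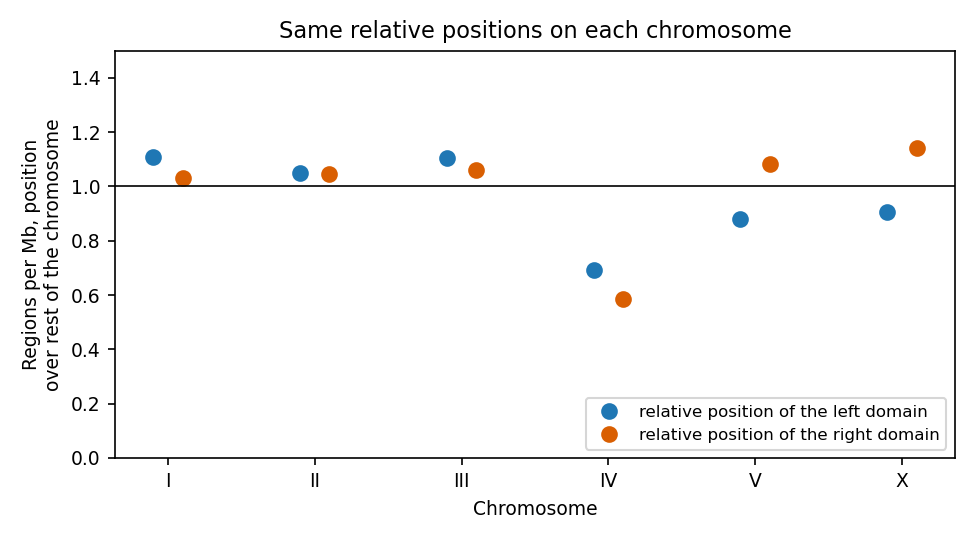
Regions per Mb at the relative position of the left domain (blue) and the right domain (orange), divided by that of the remainder of the same chromosome, for each chromosome. Chromosome IV lies at 0.692 and 0.586, and the other chromosomes lie between 0.880 and 1.14.

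The fold at these positions followed another order. At the position of the left domain the median fold was 2.06 on IV and 2.28 to 2.30 on the other autosomes, and below the remainder of the chromosome on each of the 5 autosomes. At that of the right domain it was 2.42 on IV and 2.73 to 3.12 on the other autosomes, above the remainder on each of the 5. On the X chromosome it was 1.93 and 1.80. The lower fold of the left domain and the higher fold of the right domain were also found at the same positions of the other autosomes, and on IV both values were the lowest of the 5 autosomes.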

How the data were processed

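The members and measures were chosen with earlier results of these data known. The authors deposited 1 list for both ChIP and both input libraries together. Per the file headers its coordinates are WormBase WS180. Each deposited line names PeakSeq and gives a q-value. Not given in the sources used here are the version and settings of PeakSeq, the mapper, the library depths and how replicates were joined. No other column held measurements.

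Read numbers were recovered over the whole list. Lines of equal p have q-values in the inverse ratio of their ranks. Of 2815 falling pairs, 2665 gave whole ranks (tolerance 0.001) that place the first line at rank 48, the most frequent placing. Where the other pairs would place it was not recorded. The 47 ranks before it belong to regions that rank above every listed one. They were not analysed here, and whether any of them lie in the domains is not known. The number of tested regions was searched for, and 18572 matched binomial tails in 100% of 40 weak lines, against 2.5% for the next best number. Multiplying q by rank and dividing by 18572 tested regions gave, for 99.9% of lines, exactly 1 matching binomial tail (probability 0.5, tolerance 1e-09 in ln p), and with 1 region more or fewer for 0%. The steps were tested on a simulated list.

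Intervals are Clopper-Pearson for shares, folds and density ratios, order-statistic for medians, and square-and-add for their differences. Per domain, the regions named are the 5 of lowest q, the 3 widest, the 3 of highest lower limit of fold, those at the 3 longest empty stretches, extreme windows, the longest run and those at the limits, and others were named after their values were seen. No test was run, since nothing in the list is a replicate. Python 3.11.15, NumPy 2.4.6 and SciPy 1.17.1 were used.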

Additional observations from a re-analysis of the deposited data

How the results depend on the processing

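Of 56 alternatives to 8 results, 44 gave a value within the interval of the value reported and 12 lay outside it. The direction turned under 4 of the 56. The median width, left minus right domain, went from 197 bp to −113.5 bp in the stronger 50% of the list and to −396 bp with neighbours within 1000 bp merged. The other two were differences in −log10 q whose reported intervals include 0, namely left minus right, from 1.02 to −0.73 in the stronger 50%, and domains minus rest, from 0.14 to −0.034 with limits moved 0.25 Mb inward. The density ratio of the domains to the rest, 0.572, became 0.652 with limits moved 0.25 Mb outward, 0.673 against the part between the domains and 0.740 in covered length, all below 1. Left over right density went from 1.13 to 1.48 after merging (1.09 to 2.00), an interval that excludes 1. In the stronger 50% the width difference of the domains to the rest was 290 bp, the −log10 q difference of the domains to the rest was 1.68, and the median empty stretch was 5816 bp. Merging lengthened that stretch to 6853 bp, since it removes the shortest ones. Empty windows were 36.3% at 50 kb. Counting by any overlap changed no member, so for each of the 8 results it returned the reported value and counts among the 44. The cause of the other changes was not tested. No paired analysis was possible because both replicates share 1 list, and no replicate could be omitted. The list as used here holds nothing on regions above the q-value limit and nothing on the 47 strongest ranks. It does not tell why a stretch has no listed region, or whether an unlisted one lies in it.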
